A study of Rattus norvegicus with 12 samples.

Results

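Lyve1, Gpr182, Kdr, Clec14a, Eng, Aqp1, Fam167b, Akr1c15, Vwf and Ltbp4 are 10 of the 32883 genes counted in a cell atlas of healthy rat liver, taken by name as genes read for the identity of liver endothelium. Each was read across endothelial cells and nuclei and the other cell types of the liver, along the axis from sinusoidal to larger-vessel endothelium, between rat strains and across the liver lobule. Cells were sorted in silico into marker gates, so that a cell entered the endothelial gate only with UMIs from at least 4 endothelial marker genes and with at most 0.5 times as many markers of any other nonparenchymal list. None of the 10 genes was part of a gate list. The gates can still shape their levels, since the hepatocyte gate took cells with fewer than 2 markers of every nonparenchymal list, and this was not tested.

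The atlas holds male rats of the Dark Agouti (DA) and Lewis (LEW) inbred strains, all healthy and fed a standard diet. Total liver homogenate (TLH), a suspension of whole liver after collagenase digestion, gave 4 single-cell libraries, 2 per strain, and 4 single-nucleus libraries were made from liver of 2 rats per strain with a CST extraction. A further 2 libraries, 1 per strain, were enriched for immune cells by more washes and depletion of red cells, and 2 Visium sections came from livers of the Wistar strain, described as 2 rats although both files carry 1 animal identifier. The series text puts the TLH rats at 8 to 10 weeks, the deposited files are named with 10 weeks for DA and 13 weeks for LEW, and the study's methods describe age-matched rats of a different age again, so whether age went with strain in those libraries is not settled. The nuclei were described as coming from further rats, although their files carry the same animal numbers as the TLH files, and the labels do not state that the libraries of a strain came from separate litters, so p-values measure the spread between these libraries.

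Liver sinusoidal endothelial cells line the capillaries between plates of hepatocytes, are fenestrated, and clear macromolecules from blood through scavenger receptors. Endothelium of portal and central veins and of arteries is closed and rests on a vessel wall with elastic fibres and smooth muscle. Lyve1, a hyaluronan receptor, is a classical marker of the first kind, and Vwf, the carrier of coagulation factor VIII in endothelial storage granules, of the second. Along the lobule, blood flows from the portal tract to the central vein, and both hepatocytes and endothelium change with position.

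The promoters of 4 genes are shown because Lyve1 and Fam167b followed the sinusoidal axis, Ltbp4 had its higher levels at the other end, and Aqp1 was called lower in LEW TLH cells. The sequences are the 250 bases before the annotated start of each gene, from RefSeq on rat build GRCr8, written along the gene's strand, with matches to AGGAAG or its reverse complement CTTCCT in capitals. This hexamer holds the core bound by ETS factors, a family with members that are known regulators of endothelial genes.

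Lyve1 (chr1:174410978-174411227, minus strand): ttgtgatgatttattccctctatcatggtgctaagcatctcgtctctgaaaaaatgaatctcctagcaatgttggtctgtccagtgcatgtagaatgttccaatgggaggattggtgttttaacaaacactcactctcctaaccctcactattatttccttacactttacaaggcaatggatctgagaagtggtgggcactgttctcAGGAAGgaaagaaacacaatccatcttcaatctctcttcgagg

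Fam167b (chr5:147206624-147206873, minus strand): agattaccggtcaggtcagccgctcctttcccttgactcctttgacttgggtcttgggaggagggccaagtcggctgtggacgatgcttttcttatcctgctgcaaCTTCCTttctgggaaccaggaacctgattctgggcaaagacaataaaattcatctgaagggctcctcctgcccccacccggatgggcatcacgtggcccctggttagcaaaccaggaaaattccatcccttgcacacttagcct

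Aqp1 (chr4:85812534-85812783, plus strand): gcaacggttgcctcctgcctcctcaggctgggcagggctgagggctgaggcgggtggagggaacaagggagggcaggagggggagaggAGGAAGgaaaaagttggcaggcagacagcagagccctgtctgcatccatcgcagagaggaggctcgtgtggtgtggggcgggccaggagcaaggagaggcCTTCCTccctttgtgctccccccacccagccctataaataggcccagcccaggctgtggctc

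Ltbp4 (chr1:91759808-91760057, minus strand): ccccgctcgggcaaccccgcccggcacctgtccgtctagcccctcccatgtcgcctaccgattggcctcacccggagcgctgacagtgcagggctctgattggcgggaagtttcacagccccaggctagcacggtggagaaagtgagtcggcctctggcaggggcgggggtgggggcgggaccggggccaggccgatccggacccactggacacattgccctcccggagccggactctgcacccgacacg

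The set of RefSeq promoters used here held 9 of the 10 genes, Vwf being absent from that set. A match lay in 4 of the 9, Lyve1 (1), Fam167b (1), Aqp1 (2) and Eng (2), while 29.5% of all 33469 promoters of the same length held one. No match in Ltbp4 says only that these letters are not in this window.

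The TLH libraries held 61441846 to 92484173 UMIs, the nuclei 8039397 to 15186970 and the immune-enriched libraries 48255870 and 60005133. After filters the endothelial gate held 406 and 716 DA and 417 and 192 LEW TLH cells, 124 and 169 DA and 125 and 162 LEW nuclei, and 215 DA and 387 LEW immune-enriched cells. The gate carried its other markers as well: in the nuclei the pan-endothelial list summed to 3899 to 6173 UMIs per 1000000 UMIs of the gate (CPM) and the sinusoidal list to 2142 to 3452 CPM. RNA of hepatocytes was present throughout, since the hepatocyte list took 101700 to 123600 CPM of the endothelial-gated TLH cells and 70040 to 98870 CPM of the nuclei, and cells that held 2 types were not removed. Pairs of nuclei libraries shared 8 to 24 barcodes of 4458 to 10552, and the matrices of whole cells carry no barcodes to compare.

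Lyve1 was the endothelial gene of this set with the widest gap to hepatocytes in TLH cells. Its level was 1042 and 1173 CPM in endothelial-gated cells of DA1 and DA2 and 1091 and 956.4 CPM in LEW1 and LEW2, against 12.19 to 40.8 CPM in hepatocyte-gated cells. In nuclei it was 1931 and 1827 CPM in DA and 989.5 and 671.6 CPM in LEW, against 6.56 to 10.9 CPM in hepatocyte-gated nuclei. The endothelial gate lay above every other gate in every library, and the difference from hepatocytes was 5.24 ± 0.30 (SE) on the log2 scale in TLH and 6.97 ± 0.35 in nuclei (edgeR quasi-likelihood test, adjusted p = 5.091e-09 and 9.965e-13). When every cell was drawn down to 1000 UMIs, 55.2% to 62.7% of endothelial-gated TLH cells held a Lyve1 UMI (79.7% to 86.6% before), against 1.04% to 3.66% of hepatocyte-gated cells.

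Among the tested members, the calls were near complete. The members were taken as endothelial genes with earlier results of these data known, so these counts describe them and do not test the choice. Against hepatocytes, 9 of 9 tested genes were higher in endothelial-gated TLH cells, where 20.0% of the 7879 genes tested were called higher, and 9 of 9 were higher in nuclei, where 18.8% of 5677 genes were. Against Kupffer cells, the resident macrophages, the counts were 9 of 9 in TLH (11.9% of all genes) and 9 of 9 in nuclei (7.54%). Against mesenchymal cells, which in liver are mainly stellate cells, 8 of 9 were higher in TLH (7.75%) and 8 of 9 in nuclei (6.92%), and against leukocytes 8 of 9 in TLH (10.6%). The exception in each case was Ltbp4, and Vwf was too low for the filter on counts. The median difference of the tested members lay between 3.37 and 4.64 in the 4 TLH comparisons and between 4.87 and 6.42 in the 3 nuclei comparisons, while the median of all genes lay within -0.04 and 0.04.

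Receptors of the endothelial surface formed the largest group. Kdr, the main receptor for vascular endothelial growth factor, was at 444.8 to 626.5 CPM in endothelial-gated TLH cells, with 457.9 and 576.7 CPM in LEW inside the DA range. Outside the endothelial gate its highest level in TLH was 95.21 CPM in the leukocyte gate, and the difference from leukocytes of 2.68 ± 0.25 (adjusted p = 9.657e-07) was the smallest of its 4 TLH comparisons. In nuclei Kdr rose further above mesenchymal cells, 1111 to 1810 against 9.7 to 64.8 CPM, a difference of 5.05 ± 0.26 (adjusted p = 1.693e-26). Gpr182, an atypical chemokine receptor of sinusoidal and lymphatic endothelium, was at 210.3 to 298.9 CPM in endothelial-gated TLH cells and 540.7 to 836 CPM in nuclei, against at most 29.29 and 19.42 CPM in any other gate, and in the immune-enriched libraries 727.9 and 406.8 against at most 3.0 CPM.

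Clec14a and Eng had the smallest differences from mesenchymal nuclei after Ltbp4, which is described further on. Clec14a, a C-type lectin of endothelium that binds matrix proteins, was at 652.6 to 1070 CPM in endothelial-gated nuclei and at 144.7 to 324.9 CPM in mesenchymal-gated nuclei. The groups did not overlap, but the difference of 1.60 ± 0.19 (adjusted p = 7.854e-11) was far smaller than the 7.11 ± 0.23 against hepatocytes (adjusted p = 2.229e-39). Eng, a co-receptor for ligands of the transforming growth factor beta family, behaved alike, with 506.9 to 1000 CPM in endothelial-gated and 109.4 to 198.8 CPM in mesenchymal-gated nuclei, a difference of 2.34 ± 0.21 (adjusted p = 3.759e-15). In the mesenchymal gate of TLH cells both genes were again next in order after the endothelial gate, at 48.29 to 93.46 CPM for Clec14a and 59.43 to 161.8 CPM for Eng.

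Aqp1, Fam167b and Akr1c15 are a water channel, a protein without a settled function and a rodent aldo-keto reductase. Fam167b was at 520.2 to 851.6 CPM in endothelial-gated TLH cells and at no more than 76.72 CPM in any other TLH gate. In nuclei it was at 143.6 to 395.8 CPM, against at most 16.2 CPM elsewhere. Akr1c15 was at 168.5 to 266.3 CPM in endothelial-gated TLH cells and 137.3 to 267 CPM in nuclei, and its next highest value was 18.13 CPM in TLH and 14.55 CPM in nuclei, both in the mesenchymal gate. Aqp1 was at 169 to 384.2 CPM in TLH and 190.1 to 866.5 CPM in nuclei. Its other gates reached 44.67 CPM at most in TLH and 16.2 CPM in nuclei, and erythroid-gated cells of the immune-enriched libraries, a type that uses this channel, held 29.5 and 27.2 CPM against 0.81 and 0.42 CPM in hepatocyte-gated cells. The mesenchymal gate of those libraries held Aqp1 at 105.8 CPM in DA, from 11 UMIs in 1 of 14 cells, and at 13.36 CPM in LEW, from 4 UMIs in 1 of 18 cells.

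**Figure D1:**
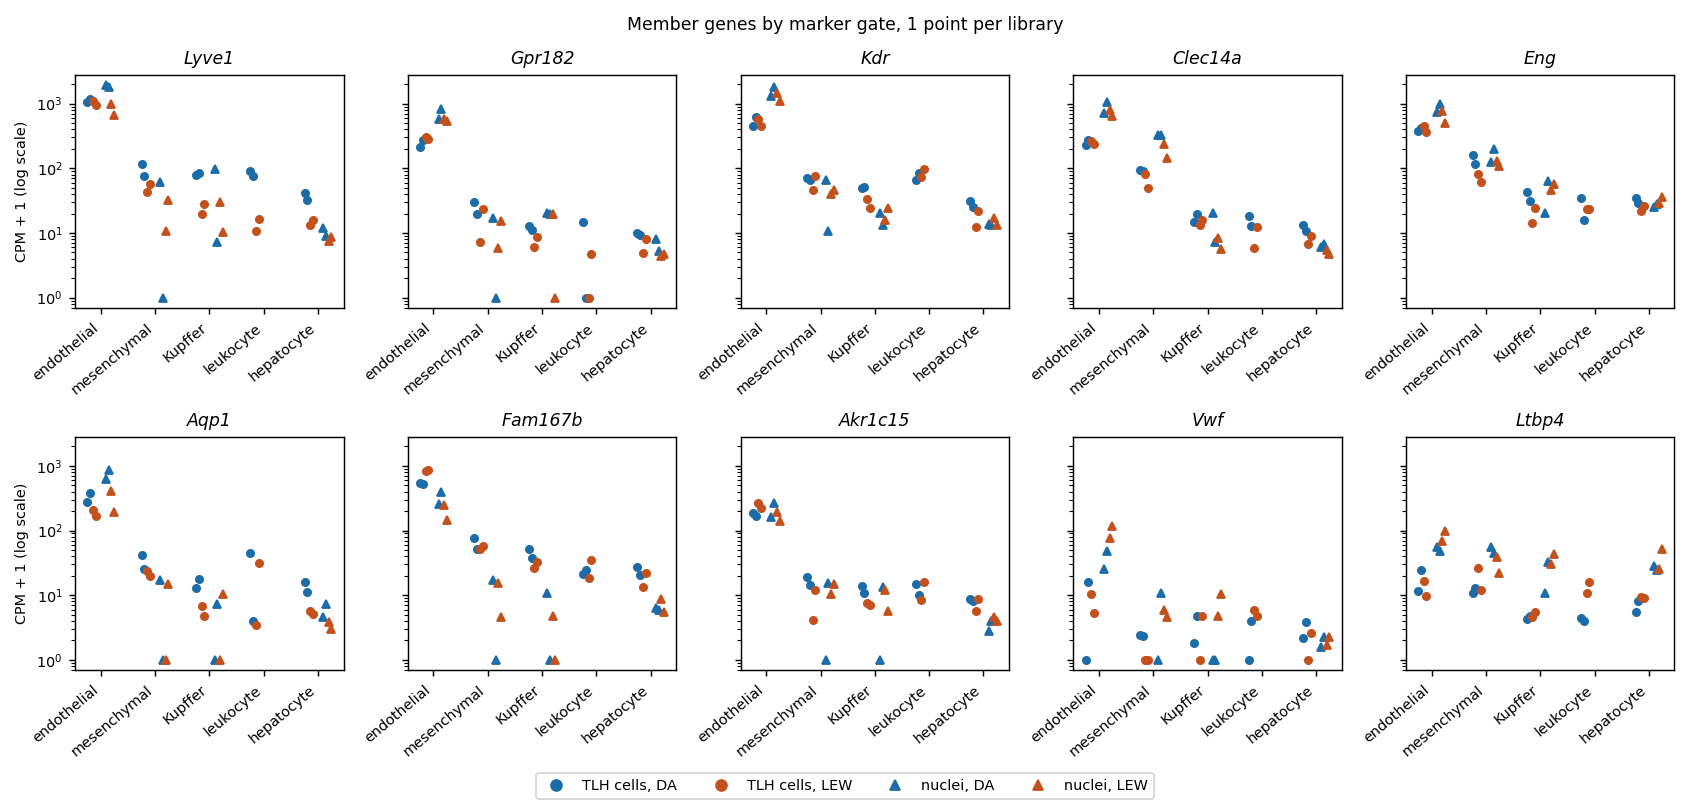
Level of each gene (CPM + 1, log axis) in 5 marker gates, 1 point per library with at least 10 cells or nuclei in the gate; circles are TLH cells, triangles nuclei, blue DA and orange LEW. For 8 genes every endothelial point lies above every point of the other gates in the same kind of library. Vwf does so in nuclei, where its lowest endothelial value is 24.3 CPM and the highest elsewhere 9.7 CPM. Ltbp4 overlaps the mesenchymal gate in TLH cells and nuclei, the leukocyte gate in TLH cells and the hepatocyte gate in nuclei. The share of all genes apart in this way was not counted.

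Ltbp4 and Vwf stood apart from the rest. Ltbp4, a matrix protein needed for elastic fibres and for storage of latent transforming growth factor beta, was at 10.72, 23.12, 15.33 and 8.56 CPM in endothelial-gated TLH cells of DA1, DA2, LEW1 and LEW2, where the first 3 lay inside the 9.76 to 25.51 CPM of the mesenchymal gate and LEW2 below it. The difference between these gates was 0.17 ± 0.34 (adjusted p = 0.84), the estimate was -0.145 with LEW cells kept from 1500 UMIs and -0.44 without DA2, and in nuclei it was 0.71 ± 0.32 (adjusted p = 0.17), where it passed with the pan-endothelial gate (0.96, adjusted p = 0.025). Against hepatocytes Ltbp4 was higher by 0.86 ± 0.26 in TLH (adjusted p = 0.005798) and by 0.82 ± 0.23 in nuclei (adjusted p = 0.002732). The call in TLH was lost without DA2, where the difference was 0.53. That in nuclei was lost without the rat as a block (adjusted p = 0.052), and so was the call against Kupffer nuclei (adjusted p = 0.069), which was also lost without DA1 (adjusted p = 0.057) or LEW2 (adjusted p = 0.10).

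Vwf rested on few molecules. Endothelial-gated nuclei held it at 24.31, 46.84, 76.86 and 116.2 CPM in DA1, DA2, LEW1 and LEW2, and TLH cells at 0, 14.86, 9.58 and 4.28 CPM. Without the filter on counts it was higher in endothelial-gated nuclei than in hepatocyte-gated nuclei by 5.58 ± 0.38 (adjusted p = 4.074e-47, with 9.87% of 18217 genes called higher), than in the mesenchymal gate by 3.82 ± 0.57 (adjusted p = 1.398e-09, 3.13%) and than in the Kupffer gate by 4.18 ± 0.61 (adjusted p = 4.829e-10, 3.86%). A Vwf UMI was found in 2.96% to 8.02% of endothelial-gated nuclei and in 0.12% to 0.295% of hepatocyte-gated nuclei, at median depths of 1310 to 1618 and 1446 to 2014 UMIs, while 69.75% to 92.74% of endothelial-gated nuclei held Lyve1. In TLH cells, also without the filter, it was higher than in the hepatocyte (2.16, 11.3% of 16359 genes called higher), mesenchymal (3.04, 4.36%) and Kupffer gates (1.87, 6.82%), and the difference from leukocytes of 1.35 ± 0.74 did not pass (adjusted p = 0.31, 6.90%).

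To read Lyve1 against Vwf and Ltbp4, endothelial cells were gated on pan-endothelial genes alone and divided within each library at the median of a share. The share was that of UMIs from 9 sinusoidal genes (Stab2, Fcgr2b, Clec4g and others, none of them a member) in the UMIs of these and the pan-endothelial genes together. A cell with many pan-endothelial UMIs can therefore fall in the poor group. Vwf lay entirely on one side in the nuclei. The sinusoidal-marker-poor group held 6, 20, 24 and 45 Vwf UMIs in DA1, DA2, LEW1 and LEW2, and the sinusoidal-marker-rich group held 0, 0, 0 and 0. Summed over rats this was 95 UMIs of 676520 against 0 of 582666, at least 27.3-fold higher in the poor group when the rich group is set to 3 counts over the group. LEW2 held 45 of these UMIs, and without it the bound was 12.7-fold, from 50 UMIs, against 19.5-fold to 25.6-fold without any one of the other rats. Vwf did not pass the filter on counts, and without the filter it was called lower in the rich group (adjusted p = 1.334e-20, where 0.0972% of 14401 genes were called lower). In TLH cells its UMIs in the poor and rich groups were 17 and 3 in DA2 and 6 and 1 in LEW1, with 0 in both groups of DA1 and LEW2, and without the filter the difference of -2.3 ± 0.77 did not pass (adjusted p = 0.83, where 0.0238% of 12600 genes were called lower). In the immune-enriched libraries they were 9 and 0 in DA and 17 and 1 in LEW. There the poor and rich groups held 324304 and 372495 UMIs of all genes in DA and 1571304 and 793041 in LEW.

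Lyve1 moved the other way and by less. In nuclei its level was 2148, 1205, 615.5 and 599.7 CPM in the poor group of DA1, DA2, LEW1 and LEW2, and 3501, 3716, 1478 and 920.6 CPM in the rich group. It was higher in the rich group in 4 of 4 rats, by 1.01 ± 0.19 (adjusted p = 0.003066), but the poor group was far from empty, and its levels in DA rats exceeded the rich group of LEW2. Fam167b rose by 1.13 ± 0.21 (adjusted p = 0.003066) and Kdr by 0.79 ± 0.17 (adjusted p = 0.01253). These 3 were the called genes among 9 tested members, where 0.768% of 2604 genes were called higher and 0.922% in either direction. Fam167b went from 250.5, 306.7, 144.8 and 95.3 CPM to 485.0, 724.3, 369.5 and 225.3 CPM, and Kdr from 1389, 1433, 1093 and 1087 CPM to 2460, 3196, 2043 and 1518 CPM. All 3 calls were lost without LEW1, where the differences were 0.92, 1.07 and 0.76 (adjusted p = 0.12, 0.07 and 0.27), and that of Kdr also without DA1 (0.81), and none was called without the rat as a block.

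Gpr182, Clec14a, Eng, Aqp1 and Akr1c15 had differences of 0.62, 0.56, 0.50, 0.45 and 0.30, none of which passed (adjusted p = 0.13, 0.19, 0.28, 0.41 and 0.65). Between the outer groups of a division in 3, Gpr182 (0.82, adjusted p = 0.017), Clec14a (0.82, adjusted p = 0.019) and Eng (0.83, adjusted p = 0.014) passed as well. The median of the 9 tested members was 0.56 against -0.02 for all genes. Ltbp4 was the tested member with a negative value, -1.28 ± 0.35 (adjusted p = 0.07), with 12, 15, 18 and 25 UMIs in the poor group against 3, 5, 3 and 17 in the rich group, and it passed without DA2 (-1.37). The poor groups also carried more of the vessel list, 933.6 to 1065 CPM against 548.5 to 873 CPM, and more of the hepatocyte list, 75450 to 94490 CPM against 51780 to 79717 CPM. The pan-endothelial list was at 6095, 5761, 5156 and 5168 CPM in the poor group of DA1, DA2, LEW1 and LEW2, and at 7187, 9463, 5165 and 3942 CPM in the rich group. In TLH cells the vessel list was higher in the poor group of each library, at 274.6 to 455.4 against 227.1 to 346.0 CPM. In the immune-enriched libraries it was lower in the poor group. It was at 767.8 against 848.3 CPM in DA and at 597.0 against 691.0 CPM in LEW. The part of these lists in the differences of the members was not tested.

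**Figure D2:**
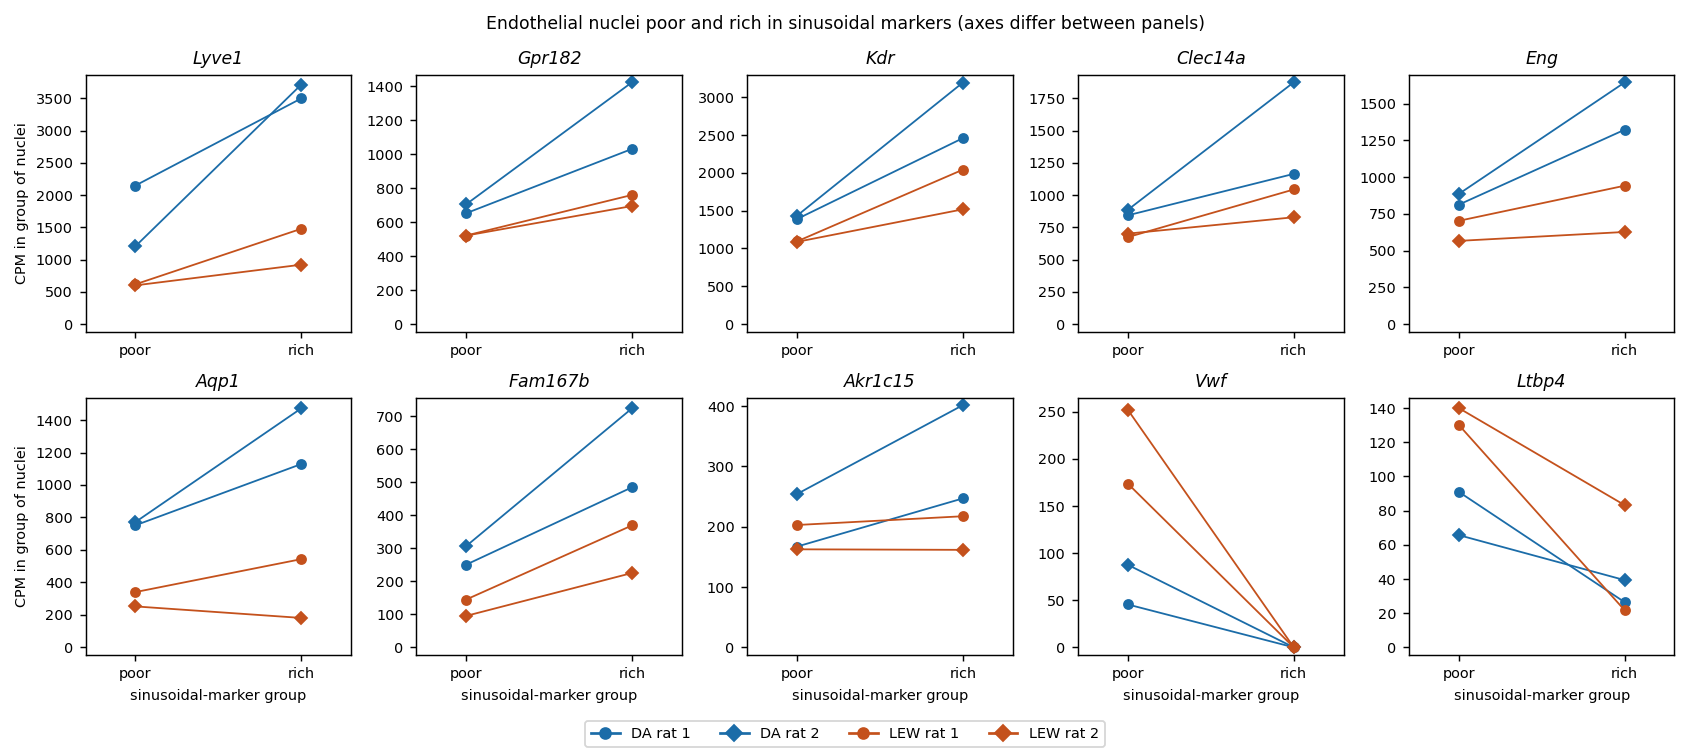
CPM of each gene in the sinusoidal-marker-poor and sinusoidal-marker-rich group of endothelial nuclei, with 1 line per rat (blue DA, orange LEW; circles rat 1, diamonds rat 2). Lyve1, Kdr and Fam167b climb in all 4 rats, Vwf drops to 0 in all 4, and Ltbp4 goes down in all 4.

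In TLH cells the same axis was flatter. Lyve1 was at 915.4, 1040, 961.1 and 881 CPM in the poor group and 1256, 1357, 1276 and 1384 CPM in the rich group, with no overlap, and was higher by 0.43 ± 0.07 (adjusted p = 1.187e-06). It was the only member called of 8 tested, where 0.176% of 2834 genes were called, and the call was lost by DESeq2 and without the rat as a block. Fam167b followed at 0.32 ± 0.08 (adjusted p = 0.068) and passed when the outer groups of a division in 3 were compared (0.43) and without LEW2 (0.35).

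Read the other way, endothelial-gated nuclei without a Lyve1 UMI among 1000 drawn UMIs held Vwf at 38.1, 81.2, 116 and 140 CPM in DA1, DA2, LEW1 and LEW2, and nuclei with such a UMI at 10.7, 0, 28.7 and 58.5 CPM. Vwf was thus higher without Lyve1 in each of the 4 libraries, a description that was not tested. The nuclei without Lyve1 were deeper, with a median of 2131 to 3870 UMIs against 1213 to 1343, and carried less of the pan-endothelial list, 1705 to 3145 against 6876 to 11420 CPM. In CPM the vessel list was not higher in them. It was at 408.5, 714.4, 758.8 and 596.9 CPM without Lyve1 in DA1, DA2, LEW1 and LEW2, against 948.7, 1035, 759.2 and 1002 CPM with it. Since the pan-endothelial list was lower in them as well, these levels do not show whether Vwf went with the vessel list. Ltbp4 had no order shared by all libraries, with 38.1 and 40.6 CPM without against 69.7 and 55.4 CPM with Lyve1 in DA1 and DA2, and 104.3 and 112.9 against 21.5 and 58.5 CPM in LEW1 and LEW2.

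Likeness of pattern was measured by Pearson's r of log2(CPM + 1) over 16 rat-by-gate profiles of the nuclei, 4 gates in each of 4 rats that share their libraries and depth. The genes most like Lyve1 among 5677 were Adgrl4, a gate gene, at 0.95, then Gpr182, Lhfpl2, Plpp1 and Kdr down to 0.93. Those most like Vwf were AABR07054469.1 at 0.97, Tlnrd1, Rasgrp3, Jam2 and Ushbp1 down to 0.94. Those most like Aqp1 were Cyyr1 at 0.96, Flt4, Galnt18, Erg and Tal1 down to 0.93, all but Galnt18 being gate genes.

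Another 29 endothelial genes that were in no gate list, of which 28 were found, gave a wider view. Against hepatocytes 22 of 23 tested were higher in endothelial-gated TLH cells (20.0% of all genes) and 17 of 18 in nuclei (18.8%), with medians of 3.44 and 4.93. The largest differences in nuclei were in Nrp1, a co-receptor of Kdr ligands (7.55), Nos3, the endothelial nitric oxide synthase (7.25), and the homeobox factor Meis2 (6.75). Against mesenchymal nuclei 11 of 18 were higher (6.92% of all genes) and 4 lower (5.30%), the higher ones led by Nos3 (5.97), Nrp2 (5.66) and Meis2 (4.13), and the 4 lower genes, named after their values were seen, were Igfbp7, Crip2, Sparc and Calcrl. In the rich group of endothelial nuclei 3 of 17 were higher (0.768% of all genes), Nrp2 (0.94), Tinagl1 (0.91) and Ctsl (0.80), with a median of 0.46, and 1 of 17 was called by DESeq2. In TLH cells 0 of 17 were called by edgeR on this axis (0.176% of all genes) and 0 by DESeq2, with a median of 0.18 and 6 at an unadjusted p under 0.05.

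Between strains, Aqp1 was lower in LEW and Fam167b higher in endothelial-gated TLH cells. Aqp1 was at 273.3 and 384.2 CPM in DA and at 205.0 and 169.0 CPM in LEW, without overlap, a difference of -0.89 ± 0.19 on the log2 scale (adjusted p = 0.01343). Fam167b was at 543.9 and 520.2 CPM in DA and at 827.7 and 851.6 CPM in LEW, a difference of 0.59 ± 0.15 (adjusted p = 0.03262). These were 2 of 9 tested members, where 3.72% of 6295 genes were called, and on simulated counts this comparison made a larger share of false calls than its threshold allows. By edgeR, Fam167b did not pass with gates of 1 marker more (adjusted p = 0.105), the pan-endothelial gate (0.13) or cells drawn down to 1000 UMIs (0.081). Aqp1 still passed with cells drawn down (adjusted p = 0.022). By DESeq2 neither passed (adjusted p = 0.093 and 0.28), and neither passed without DA2 (-0.62 and 0.54), LEW1 (-0.98 and 0.66) or LEW2 (-0.82 and 0.51).

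The remaining members of the TLH comparison lay between -0.60 for Ltbp4 and 0.41 for Akr1c15, and Lyve1 differed by -0.18 ± 0.15 (adjusted p = 0.57). In the same libraries the hepatocyte gate, a type that should lack both genes, had lower Lyve1 in LEW, with a difference of -1.39 ± 0.21 (adjusted p = 0.007035), and lower Aqp1, with -1.45 ± 0.29 (adjusted p = 0.03065), where 3.36% of 8859 genes were called, with Aqp1 at 14.95 and 10.14 CPM in DA and 4.63 and 4.17 CPM in LEW. The sinusoidal list took 1352 and 1430 CPM in DA and 1845 and 1939 CPM in LEW of the endothelial gate. Whether either moves the strain differences was not tested.

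In nuclei no member was called between strains, 0 of 10 by edgeR at an adjusted p and 0 by DESeq2, where 0.339% of 6197 genes were called and 511 genes, 4 of them members, had an unadjusted p under 0.05. Some members, Lyve1, Aqp1 and Vwf among them, had strain values that did not overlap. With 2 libraries per strain this can arise by chance, and the share of all genes with such groups was not counted. Lyve1 differed by -1.22 ± 0.38 (adjusted p = 0.26), with both DA rats at 1827 CPM or above and both LEW rats below 1000 CPM. Aqp1 was at 632.1 and 866.5 CPM in DA and 413.1 and 190.1 CPM in LEW, a difference of -1.35 ± 0.39 (adjusted p = 0.21). Vwf was at 24.31 and 46.84 CPM in DA and 76.86 and 116.2 CPM in LEW, a difference of 1.43 ± 0.39 (adjusted p = 0.17). Across alternatives the adjusted p ran from 0.01518 to 1 for Lyve1, from 0.009955 to 1 for Aqp1 and from 0.016 to 0.9997 for Vwf, and with each nucleus drawn down to 1000 UMIs Lyve1 (-1.304, adjusted p = 0.015) and Aqp1 (-1.64, adjusted p = 0.01) passed while Vwf did not (1.12, adjusted p = 0.25). Along the sinusoidal axis, Vwf in the poor group was at 45.5 and 87.6 CPM in DA and 173.8 and 252.2 CPM in LEW.

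Fam167b went with LEW in TLH cells and against it in nuclei, at 259.3 and 395.8 CPM in DA and 243.4 and 143.6 CPM in LEW, a difference of -0.79 ± 0.36 (adjusted p = 0.56). The difference between the kinds of library was -1.39 ± 0.43 and did not pass after adjustment (edgeR interaction test, adjusted p = 0.40). None of the 10 members passed this test by edgeR or DESeq2, with 4 at an unadjusted p under 0.05 by edgeR, which called 0.0422% of 7116 genes. In the immune-enriched libraries, with 1 library per strain and no test, all 10 members were higher in DA than in LEW. The share of all genes higher in DA was not counted, so this does not set the members apart. The levels were 3275 and 1441 CPM for Lyve1, 739.3 and 296.4 CPM for Aqp1, 2300 and 1193 CPM for Fam167b, 727.9 and 406.8 CPM for Gpr182, 1258 and 827.7 CPM for Eng and 856.6 and 641.1 CPM for Clec14a. Kdr (1718 and 1580 CPM), Akr1c15 (657.9 and 628.5 CPM) and Ltbp4 (51.48 and 43.86 CPM) were closer, and Vwf (9.27 and 5.18 CPM) rested on 9 and 19 UMIs. In the endothelial gate of these libraries the hepatocyte list took 24940 CPM in DA and 64180 CPM in LEW and the Kupffer list 1929 and 9883 CPM, and their part in these differences was not tested.

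**Figure D3:**
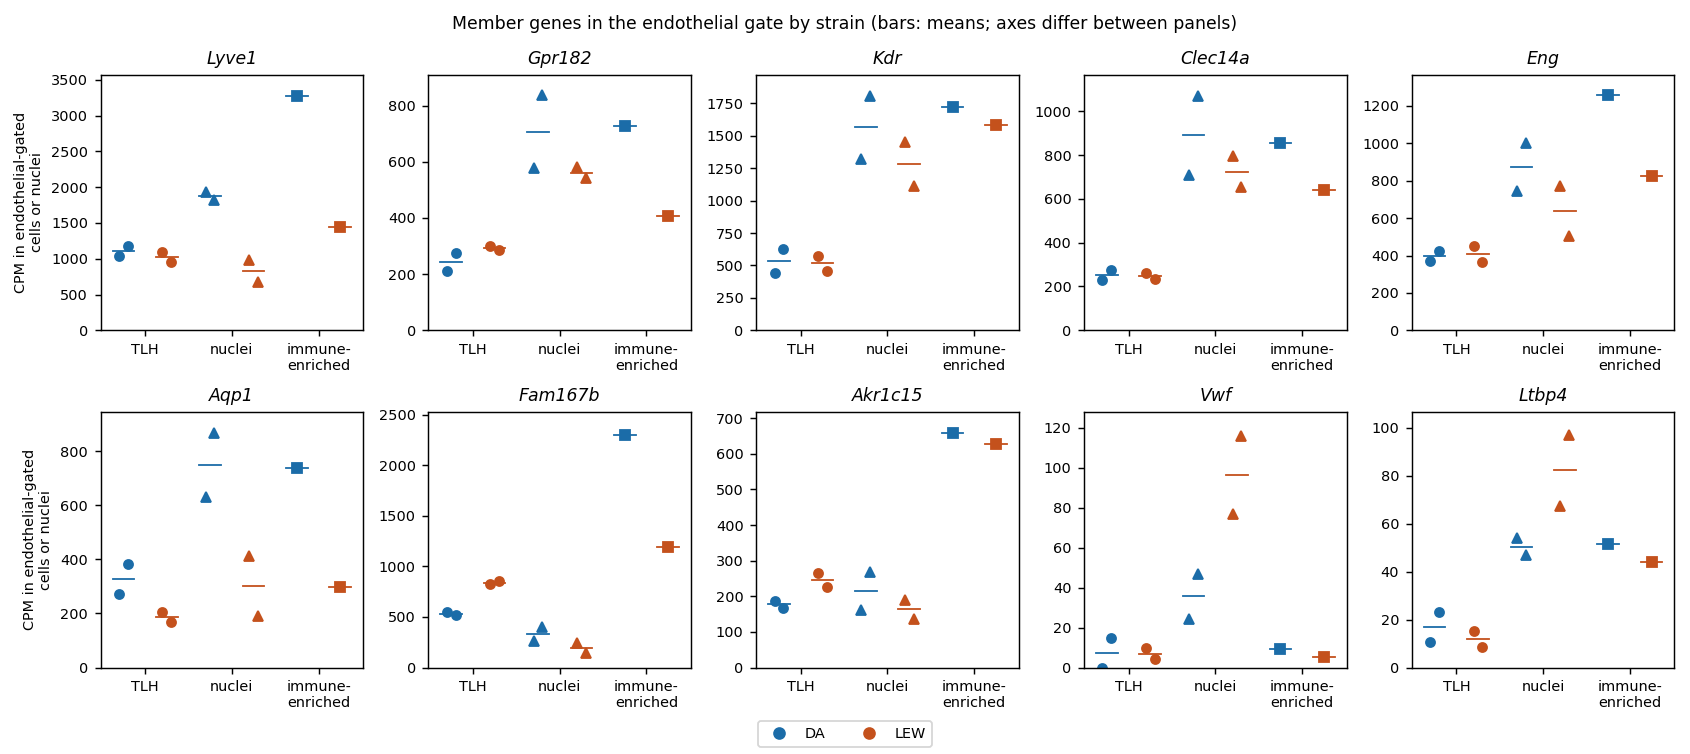
CPM of each gene in endothelial-gated cells or nuclei by kind of library and strain (blue DA, orange LEW), 1 point per library and a bar at the mean. Aqp1 is lower in LEW in all 3 kinds of library, while Fam167b is higher in LEW in TLH cells, 827.7 and 851.6 against 543.9 and 520.2 CPM, and lower in the other 2 kinds.

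On the Visium sections, spots were ordered by hepatocyte genes of the pericentral and periportal zones and divided into 5 bins of 480 to 488 spots. A spot holds several cells, so fewer endothelial cells and less RNA per cell cannot be told apart, and ratios carry exact 95% intervals that cover counting error only. Lyve1 climbed from periportal to pericentral bins, through 40.96, 47.21, 51.12, 59.36 and 59.17 CPM in section 1 and 34.71, 44.97, 51.04, 58.57 and 67.39 CPM in section 2. The pericentral bin exceeded the periportal bin 1.44-fold (1.24 to 1.68) and 1.94-fold (1.66 to 2.27).

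Ltbp4 ran in the opposite direction. It went through 26.90, 20.05, 16.89, 15.41 and 14.17 CPM in section 1 and 28.18, 19.50, 15.77, 13.75 and 12.72 CPM in section 2, lower in each bin than in the one before, with ratios of 0.527 (0.408 to 0.675) and 0.451 (0.345 to 0.585). Aqp1 was also highest in the periportal bin, at 37.04 and 50.21 CPM against 28.63 and 30.99 CPM in the pericentral bin, with ratios of 0.773 (0.640 to 0.932) and 0.617 (0.517 to 0.735). Clec14a (1.59, 1.26 to 2.02, and 1.36, 1.07 to 1.74) and Eng (1.42, 1.24 to 1.62, and 1.304, 1.14 to 1.496) went with Lyve1, so that 5 of the 10 genes had intervals away from 1 on the same side in both sections, as did 9.97% of the 9544 genes with at least 10 UMIs in the end bins of each section, genes of the zone index left out. An interval leaves 1 more easily where a gene has more UMIs, and the 9544 genes were not matched to the members for UMIs. Median UMIs per spot in the periportal and pericentral bins were 14480 and 13470 in section 1. In section 2 they were 16280 and 12950. Eng had 382 and 496 UMIs in these bins of section 1 and 412 and 433 in section 2. Clec14a had 122 and 178 UMIs, and 132 and 145. The part of depth in the ratios was not tested. The number of members with such intervals was 6 with the bins cut at the median and 6 without spots under 5000 UMIs, Fam167b being the gene added, and 5 without Glul and Cyp2e1 in the index.

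Vwf was highest at both ends of the lobule. Its levels were 13.79, 7.54, 4.18, 4.88 and 10.92 CPM in section 1 and 15.50, 7.69, 7.29, 7.42 and 13.67 CPM in section 2, so that its ratios of 0.792 (0.579 to 1.08) and 0.882 (0.661 to 1.17) did not separate the ends. Fam167b was at 1.19 (0.977 to 1.45) and 1.54 (1.23 to 1.93). Gpr182, Kdr and Akr1c15 had ratios between 1.06 and 1.16 with intervals that included 1. Between the same end bins, the summed pan-endothelial list was at 235.9 and 244.8 CPM in section 1 and 246.1 and 258.8 CPM in section 2, and the sinusoidal list at 79.77 and 95.03 CPM and at 83.52 and 102.2 CPM. The vessel list was at 100.7 and 121.4 CPM and at 105.3 and 124.1 CPM, so that it too was higher at the pericentral end, where Ltbp4 was lower. Of other cell types, the mesenchymal list was higher at the pericentral end, as Clec14a and Eng were, with 1249 and 1468 CPM in section 1 and 1312 and 1622 CPM in section 2. The cholangiocyte list was higher at the periportal end, as Aqp1 and Ltbp4 were, with 68.81 and 63.01 CPM and with 81.34 and 67.55 CPM, and the smooth muscle list was at 31.77 and 37.48 CPM and at 36.38 and 41.8 CPM. The part of these lists in the zone differences of the members was not tested.

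**Figure D4:**
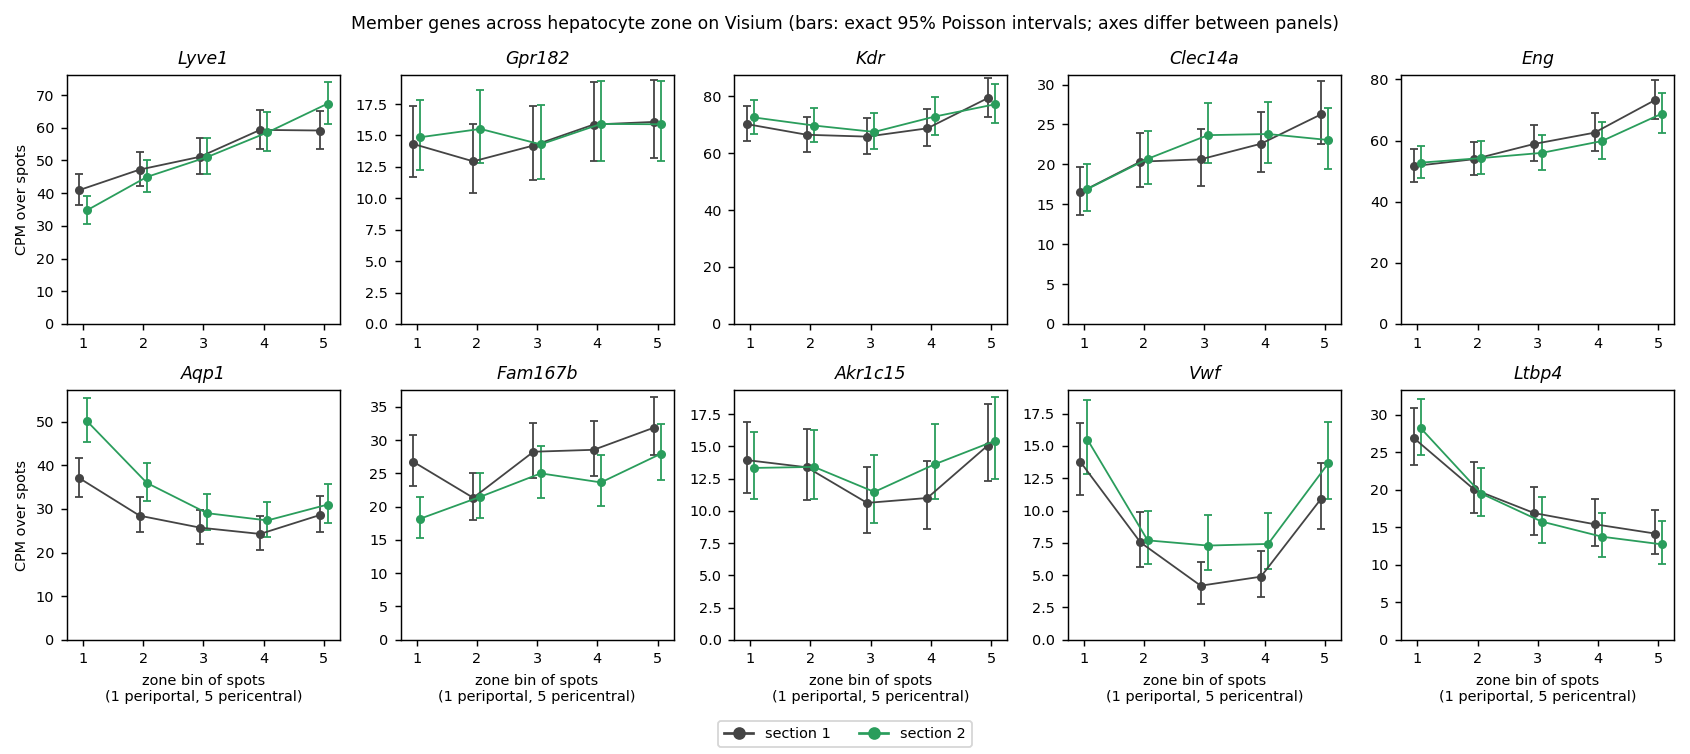
CPM of each gene summed over spots in 5 zone bins, from periportal (1) to pericentral (5), for section 1 (grey) and section 2 (green), with exact 95% Poisson intervals. Lyve1 climbs and Ltbp4 goes down across the bins in both sections, and Vwf is lowest in the middle bins, between 4.18 and 7.42 CPM in bins 3 and 4.

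The 5% of spots with the most smooth muscle RNA, read as spots near larger vessels, held Vwf at 15.72 against 8.11 CPM in the remaining spots of section 1, a ratio of 1.94 (1.17 to 3.05), and at 29.21 against 9.74 CPM in section 2, a ratio of 2.998 (2.04 to 4.28). Ltbp4 was also higher in these spots, with ratios of 1.48 (1.02 to 2.09) and 1.52 (1.03 to 2.17). Spots richest in cholangiocyte RNA, a mark of portal tracts, held Vwf at ratios of 1.34 (0.725 to 2.29) and 3.28 (2.24 to 4.65) and Ltbp4 at 1.37 (0.926 to 1.95) and 1.35 (0.879 to 1.98), so that the intervals of Ltbp4 included 1 in both sections and that of Vwf in section 1. Aqp1 was at 1.27 (0.926 to 1.71) and 1.03 (0.732 to 1.41) in the cholangiocyte spots, with intervals that included 1 in both sections. In the smooth muscle spots Lyve1 was at 1.03 (0.793 to 1.31) and 1.29 (1.01 to 1.63), Gpr182 at 0.853 (0.484 to 1.40) and 1.73 (1.15 to 2.499), and Aqp1 at 1.55 (1.16 to 2.03) and 1.15 (0.840 to 1.54). The smooth muscle spots were shallower, at a median of 10970 and 9458 UMIs against 14040 and 14500. So were the cholangiocyte spots, at 11230 and 8128 UMIs against 13990 and 14530. Both kinds of spot were ranked by the share of the list in the UMIs of a spot, and the part of depth was not tested.

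Outside the endothelium, Kdr in the leukocyte gate of the immune-enriched libraries was uneven between groups of cells that were set after the values were seen. The gate held 246 Kdr UMIs in 347 DA cells and 129 in 224 LEW cells. Leukocyte-gated cells of the DA immune-enriched library with UMIs of both Siglech and Ptcra, genes known in plasmacytoid dendritic cells, numbered 16, and 14 of them held Kdr. Their Kdr level was 687.6 CPM (547.7 to 852.4, exact Poisson interval) from 83 UMIs, and the 2 such cells of the LEW library held 22 UMIs or 1544 CPM (967.7 to 2338). Cells with T, NK or B cell genes held Kdr at 2.11, 5.65 and 5.81 CPM in DA and at 2.35, 0 and 0 CPM in LEW. Most of the UMIs lay in cells that met the rule of none of the 4 groups, 158 UMIs in 49 DA cells (523.8 CPM, 445.3 to 612.1) and 106 UMIs in 33 LEW cells (525.8 CPM, 430.5 to 635.9), of which 21 and 14 held Kdr. A cell with only 1 of Siglech and Ptcra could enter none of the 4 groups. The cells of no group can therefore include plasmacytoid dendritic cells, and the split cannot tell them from other leukocytes. In the TLH libraries Kdr was at 25.61 to 61.74 CPM in leukocyte-gated cells with NK genes and at 97.18 to 285 CPM in those of no group, and 1 to 3 cells per library held both Siglech and Ptcra. In the 16 DA cells Clec14a and Gpr182 had 0 UMIs, with exact Poisson intervals up to 30.56 CPM, and Lyve1 had 10 UMIs or 82.85 CPM.

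**Figure D5:**
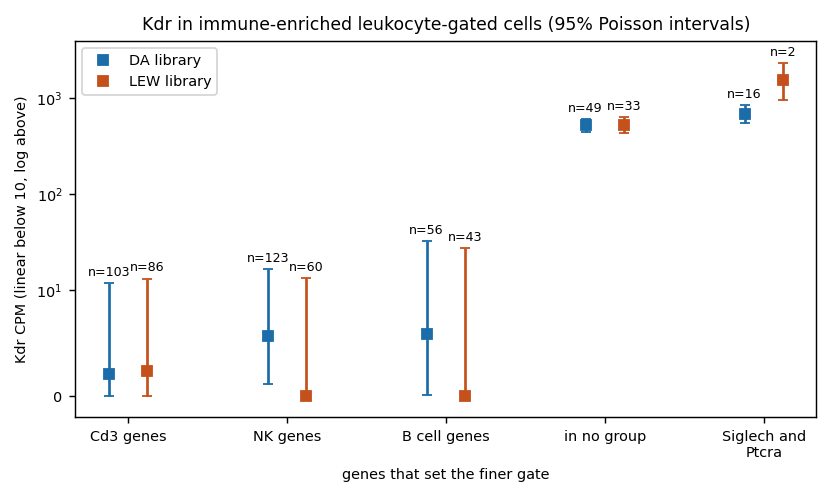
Kdr CPM (linear below 10, log above) in 4 finer groups of leukocyte-gated cells and in the cells of no group in the DA (blue) and LEW (orange) immune-enriched library, with exact 95% Poisson intervals and cell numbers. Cells with both Siglech and Ptcra lie at 687.6 and 1544 CPM, cells of no group at 523.8 and 525.8 CPM, and cells with Cd3, NK or B cell genes under 6 CPM.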

How the data were processed

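Cell Ranger 3.1.0 and Space Ranger 1.1.0, as the submitters' processing notes name them, were run by the authors on the Rattus_norvegicus custom 6.0.98 reference for cells and nuclei. The deposited values are unnormalized UMI counts of each gene in every called barcode or spot, before any filter on cells. Version 2 chemistry was used for TLH cells and version 3 for the other suspensions. The matrices of whole cells carry no gene names, and their rows took the names of the nuclei gene list, which has the same 32883 rows. The members and gene lists were chosen with earlier results of these data known.

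Cells were kept at 1500 UMIs or more in DA1 and 2000 in the other TLH libraries, where the stated limit for LEW is 1500, with at most 30%, 20% and 40% mitochondrial UMIs in DA1, DA2 and LEW, at 1000 UMIs and 50% in immune-enriched libraries, and at 1000 UMIs and 10% in nuclei. This left 6623, 7112, 5457 and 3844 TLH cells, 2205, 2557, 5262 and 2501 nuclei and 1163 and 2677 immune-enriched cells. All 2437 and 2404 Visium spots were used. The endothelial gate used pan-endothelial and sinusoidal lists, of which 26 of 27 and 9 of 9 genes matched. Other gates needed 4 markers (3 for cholangiocytes and erythroid cells), and the hepatocyte gate fewer than 2 markers of every nonparenchymal list. Gates under 10 cells were left out, which removed leukocytes, cholangiocytes and erythroid cells of the nuclei and cholangiocytes of TLH. No doublet caller was run.

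UMI counts were summed per rat and gate and tested with the quasi-likelihood test of edgeR 4.0.16 (R 4.3.3) (TMM, robust fit, filterByExpr), with p adjusted over all genes by Benjamini-Hochberg and called under 0.05. The rat was a block for gates and for the sinusoidal axis, and strains were compared as LEW minus DA with 2 libraries each and no block. The interaction of strain and kind of library was fitted over 8 libraries, 4 of each kind. Fold changes, SE and adjusted p are on the log2 scale of these fits. CPM are relative to all UMIs of the gate and were not compared between genes. The tests were checked on simulated counts, where both strain comparisons, and by a smaller margin the TLH sinusoidal axis and the nuclei gate comparison, made a larger share of false calls than the threshold allows, and both strain comparisons missed most changes of the smaller of the simulated sizes. The zone index of a spot was the mean z score of 11 pericentral genes minus that of 12 periportal genes. Immune-enriched libraries and sections had no test.

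Named genes were the 10 members, the 5 genes most like Lyve1, Vwf and Aqp1, and at most 3 of the other endothelial list by size of change; outside this rule, 4 genes lower than in mesenchymal nuclei and the leukocyte groups read for Kdr were chosen after their values were seen. Alternatives were other size factors, DESeq2 1.42.0, no filter, blocks, gates with 1 marker more or fewer or with pan-endothelial genes alone, LEW cells from 1500 UMIs, a division in 3, zone bins cut at the median, without spots under 5000 UMIs or without Glul and Cyp2e1, and each rat left out. Cells drawn down to 1000 UMIs, a crossed block and all settings of the interaction were added after seeing the data. Immunostaining and flow cytometry were not analysed here.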

Additional observations from a re-analysis of the deposited data

How the results depend on the processing

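The labels do not say that rats of the same number form a pair. Deviations of same-numbered rats correlated at -0.10 in TLH cells and 0.08 in nuclei. A single correlation per kind of library cannot tell whether such rats shared a batch. With the replicate number as a block, 344 genes were called between strains in TLH and 123 in nuclei, 3 of them members in nuclei (Lyve1, adjusted p = 0.045; Aqp1, 0.018; Vwf, 0.03006), and a crossed block called 535 in TLH. For the strain comparison in TLH, 234 genes became 82 by DESeq2, 402 without the filter, 131 with the pan-endothelial gate, 149 with thinned cells, 358 with LEW cells from 1500 UMIs, and 39 to 421 when a rat was left out. Its 2 members became 0 by DESeq2, 1 each with 1 marker more, the pan-endothelial gate or thinned cells, and 0 to 2 with a rat left out, with 0 without DA2, LEW1 or LEW2. In nuclei, 21 genes became 121 without the filter, 47 with the pan-endothelial gate, 50 with thinned nuclei and 44 to 181 with a rat left out, and 0 members became 2, 1, 2 and 0 to 2. On the sinusoidal axis, 3 members in nuclei became 0 without the rat as a block, 6 with a division in 3 and 0 to 4 with a rat left out (0 without LEW1), and 1 in TLH became 0 by DESeq2, 0 without the block, 2 with a division in 3 and 1 to 2 with a rat left out. Counts against other gates stayed at 8 to 10 and the interaction at 0 to 0 with a library left out. Estimates that changed sign were Ltbp4 against mesenchymal TLH cells (-0.145 from 1500 UMIs; -0.437 without DA2, up to 0.455 without LEW1) and the TLH strain differences, over the rats left out, of Gpr182 (-0.00238 to 0.388), Kdr (-0.356 to 0.140), Clec14a (-0.239 to 0.0197), Ltbp4 (-1.12 to 0.179) and Eng (-0.152 to 0.0598, and 0.206 with thinned cells). Aqp1 on the TLH axis ran from -0.178 without DA2 to 0.271, and the interactions of Kdr from -0.463 to 0.0333 and of Vwf from -4.04 without TLH DA2 to 2.64. The cause was not tested.

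With 2 rats per strain, 124 to 169 endothelial-gated nuclei per library and RNA of hepatocytes in every gate, strain differences of the members cannot be called absent. Vwf and Ltbp4 rest on few UMIs. Spots and cells give counting error only, and no zone difference was tested over animals.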
